A study of Mus musculus with 9 samples.

Results

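Cortical cells of mouse embryos that carried a hairpin against Gpc4 (sh-Gpc4) were compared with cells that carried a hairpin against Gpc2 (sh-Gpc2), gene by gene. The comparison holds 6 of the 9 libraries of the study, 3 for each hairpin, and was chosen by hairpin alone, without any measured value. All embryos were wild type before the procedure. A vector that carries mCherry with the hairpin, built into a microRNA backbone, was electroporated into the brain in utero at E14.5, and mCherry-positive forebrain cells were sorted by flow cytometry 48 h later, at E16.5. The labels give the genotypes as Gpc4 knockdown and Gpc2 knockdown and the cell type as cortical progenitors together with neurons. The remaining 3 libraries carry a scrambled hairpin (sh-NT); they entered no test here, and their levels are given only as a background. Each library is a mixture of all cells that took up the vector, so fewer cells of a type and less RNA per cell cannot be told apart. The labels do not say how many embryos or litters stand behind a library, so p-values measure the spread between libraries, which may be technical. Libraries are named below by the numbers of their columns in the count table, 1, 3 and 4 for sh-Gpc4 and 1, 2 and 4 for sh-Gpc2. The labels do not say whether equal numbers pair libraries, and the numbers were not taken as pairs.

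Glypicans are proteoglycans held on the outer face of the cell membrane by a lipid anchor, and their core proteins carry chains of heparan sulfate. The chains bind secreted signals such as Hedgehog, BMP, FGF and Wnt proteins and can raise or lower the signal a cell receives. In the developing cortex, glypican 4 is known from progenitors and, later, from astrocytes, where it promotes synapse formation, and glypican 2 is known from developing neurons and their growing axons. A direct comparison of the hairpins asks what separates the loss of these family members in cells that went through the same surgery, vector and sort.

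Library depth ran from 48045603 to 66538437 reads. Markers of the labelled cells were present in all 6 libraries: the radial glial factor Pax6 at 147 to 178 CPM (a read count scaled to library size), the intermediate progenitor factor Eomes at 79.98 to 106 CPM and the neuronal factor Neurod6 at 1060 to 1463 CPM. The libraries did not group by hairpin. On the first principal component, which held 71.2% of the variance of 11941 well-expressed genes, sh-Gpc4 libraries 1, 3 and 4 had coordinates of -14.5, 36.8 and 6.80, and sh-Gpc2 libraries 1, 2 and 4 had -26.4, -29.0 and 26.3. Library 3 of sh-Gpc4 therefore lay beside library 4 of sh-Gpc2 at the positive end, and the negative end held library 1 of sh-Gpc4 with libraries 1 and 2 of sh-Gpc2. By Pearson correlation of log2 CPM across these genes, the closest library was one of the other hairpin for 6 of 6 libraries. Library 3 of sh-Gpc4 and library 4 of sh-Gpc2 were the most alike (r = 0.992). Pairs with the same hairpin ranged from 0.938 to 0.982 and pairs across hairpins from 0.921 to 0.992, so the least alike pair was also across hairpins. The loadings of the first component followed the GC content of the genes (Pearson's r = -0.497 across 11229 genes, which are not independent replicates). Library 2 of sh-Gpc2 stood alone on the second component, at 23.7.

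**Figure D1:**
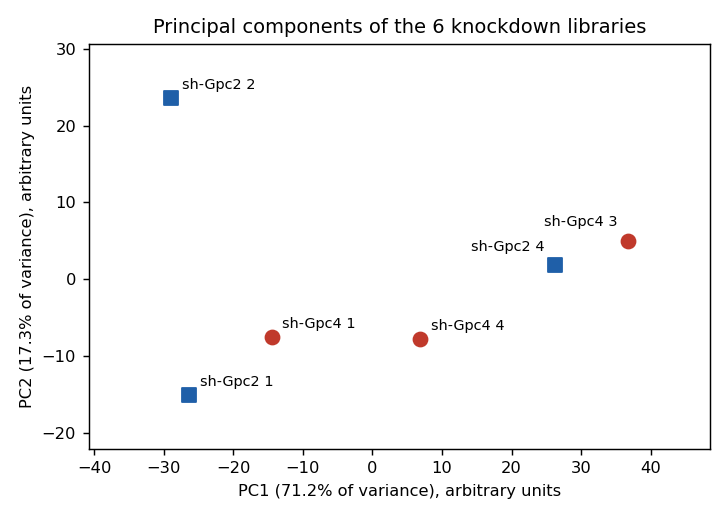
Each point is 1 library, placed by its coordinates on the first (x axis) and second (y axis) principal components of log2 CPM, in arbitrary units, with colour giving the hairpin and the number giving the library. The hairpins are interleaved along the first component, which held 71.2% of the variance, and library 2 of sh-Gpc2 lies apart on the second.

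Between the hairpins, edgeR's quasi-likelihood test called 0 of 27116 tested genes (0%) at a Benjamini-Hochberg adjusted threshold of 0.05, and its smallest adjusted p was 0.9996. DESeq2 and limma voom also called 0 genes, with smallest adjusted p of 0.167 and 0.839. Without adjustment, 474 genes (1.75%) had an edgeR p under 0.05, of which 171 (0.631%) were higher and 303 (1.12%) lower in sh-Gpc4. By chance alone 1355.8 of the genes tested in edgeR would be expected under that threshold, more than were found. DESeq2 gave 504 genes (0.933%) and voom 921 genes (3.4%). The 3 libraries of each hairpin did not overlap for 1392 genes (5.13%), 848 higher (3.13%) and 544 lower (2.01%) in sh-Gpc4. Log2 fold changes are given as sh-Gpc4 over sh-Gpc2; their median over all tested genes was -0.01, and 48.6% of genes had a positive value. No gene is therefore called different between the hairpins, and the values below describe these 6 libraries. A test that calls nothing with 3 libraries a group does not show that the hairpins act alike.

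Neither target separated the groups. Gpc4 (chrX:52053021-52165252 on GRCm38, minus strand) measured 137, 101 and 130 CPM in sh-Gpc4 libraries 1, 3 and 4 and 146, 217 and 117 CPM in sh-Gpc2 libraries 1, 2 and 4. The groups overlapped, since library 4 of sh-Gpc2 lay below libraries 1 and 4 of sh-Gpc4, and the highest level was in library 2 of sh-Gpc2. The mean was 123 ± 18.9 CPM in sh-Gpc4 and 160 ± 51.4 CPM in sh-Gpc2 (SD, n = 3 each), a log2 fold change of -0.38 with a 95% interval of -0.93 to 0.16 (exact two-sided permutation p = 0.4, the smallest possible being 0.1). Without library 2 of sh-Gpc2 the log2 fold change was -0.10. In the scrambled controls Gpc4 was at 165, 192 and 175 CPM.

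Gpc2 (chr5:138273655-138280005 on GRCm38, minus strand, at a locus annotated as overlapping another gene) measured 168, 71.3 and 96.9 CPM in sh-Gpc4 and 169, 146 and 80.8 CPM in its own knockdown group. Its mean was thus not lower in sh-Gpc2 than in sh-Gpc4, at 132 ± 45.6 against 112 ± 49.96 CPM (SD, n = 3 each). The log2 fold change was -0.24 (95% interval -1.09 to 0.62; exact two-sided permutation p = 0.7) and 0.00577 without library 3 of sh-Gpc4. The low values were in library 3 of sh-Gpc4 and library 4 of sh-Gpc2, the libraries at the positive end of the first component. Scrambled controls had 201, 211 and 161 CPM. Neither transcript was therefore lowest in its own knockdown group beyond the spread between libraries.

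The rest of the glypican family and its chain machinery gave small differences. All 6 glypicans had negative log2 fold changes, from -0.38 to -0.06 with a median of -0.16. Groups did not overlap for 0 of 6, against 5.13% of all tested genes, and 1 of 6 was positive after removal of the GC trend. Without library 3 of sh-Gpc4 or without library 1 of sh-Gpc2, 2 of 6 were positive, with medians of -0.04 and -0.03, and without library 4 of sh-Gpc2 the median was -0.32. Gpc1 and Gpc3 were at -0.12 (SE 0.20) and -0.20 (SE 0.22). Of 10 tested other heparan sulfate core proteins 8 were negative (median -0.32, from -0.56 without library 1 of sh-Gpc4 to -0.17 without library 3 of sh-Gpc4 or without library 1 of sh-Gpc2), with 0 of 10 not overlapping. The members with the smallest p included Sdc4, a syndecan of focal adhesions, at -0.69 (SE 0.35), and Hspg2, which encodes perlecan of basement membranes, at -0.63 (SE 0.44). Perlecan transcript was at 4.56, 2.22 and 2.999 CPM in sh-Gpc4 and 5.61, 7.18 and 2.29 CPM in sh-Gpc2, with the low values again in library 3 of sh-Gpc4 and library 4 of sh-Gpc2. Of 10 tested genes that build the chain 9 were negative (median -0.14, from -0.27 without library 4 of sh-Gpc2 to -0.05 without its library 2), among them Xylt2, which starts the chain by adding xylose, at -0.68 (SE 0.44).

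Genes that modify the chain had a median of 0.04 (-0.02 without library 4 of sh-Gpc4), and 10 of 18 tested members were positive. Of the 18, 2 were higher without overlap, against 3.13% of all tested genes. These were Ndst3 and, by a smaller margin, the sulfotransferase gene Hs3st1 (0.07). The chain-sulfating enzyme Ndst3 was at 66.5, 72.5 and 61.6 CPM in sh-Gpc4 and 61.3, 55.6 and 61.3 CPM in sh-Gpc2, which places all sh-Gpc4 libraries just above all sh-Gpc2 libraries (log2 fold change 0.17, SE 0.11). The sulfotransferase Hs3st3b1, at 0.739 to 1.25 CPM in sh-Gpc4 and 1.05 to 2.45 CPM in sh-Gpc2, overlapped between groups (-0.80, SE 0.35). Known glypican partners had a median of -0.07 over 13 tested genes with 4 positive, but 7 of 13 were positive without library 2 of sh-Gpc2. Among them, the synaptic adhesion protein Lrrtm3 was at 0.26 (SE 0.19) and the orphan receptor Gpr158 at -0.40 (SE 0.33), both with overlapping groups.

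The gene with the smallest p in edgeR was Slc15a2, which encodes a transporter of di- and tripeptides. It measured 51.2, 47.6 and 52.6 CPM in sh-Gpc4 libraries and 35.0, 35.0 and 35.6 CPM in sh-Gpc2 libraries, with 34.5, 38.3 and 26.4 CPM in scrambled controls. Every sh-Gpc4 library lay above every sh-Gpc2 and control library, and the 3 sh-Gpc2 values were almost equal. The log2 fold change was 0.52 with an SE of 0.10. Its adjusted p was 0.9996 in edgeR, 0.769 in DESeq2 and 0.839 in voom.

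Plppr1, a membrane protein of growing axons related to lipid phosphatases, came next in that direction, at 74.4, 78.7 and 87.3 CPM in sh-Gpc4 and 58.6, 57.9 and 62.1 CPM in sh-Gpc2, a difference of 0.43 on the log2 scale (SE 0.10). Its control libraries, at 64.1, 69.1 and 76.8 CPM, lay between the hairpins or among the sh-Gpc4 values. Cdh13, a lipid-anchored cadherin, was at 17.2, 20.2 and 24.03 CPM in sh-Gpc4 and 14.1, 12.1 and 15.7 CPM in sh-Gpc2 (0.55, SE 0.17). The MAP kinase phosphatase Dusp8 had 95.3, 118 and 100 CPM against 62.3, 60.1 and 93.6 CPM (0.54, SE 0.19), where library 4 of sh-Gpc2 nearly reached the sh-Gpc4 values. The other 8 genes of the 12 described in this direction had log2 fold changes of 0.20 to 0.73. They include Slfn8 of the Schlafen family (0.73), the netrin-G ligand gene Lrrc4c (0.40), the transcriptional corepressor Runx1t1 (0.48) and the ubiquitin ligase Pdzrn3 (0.20). All 12 were selected for groups that do not overlap, so that property is no finding. The controls were all below every sh-Gpc4 library for 3 of the 12, and the control range reached both groups for 7.

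The 12 genes described in the other direction, lower in sh-Gpc4 than in sh-Gpc2, differed more in size. Iigp1, an interferon-inducible GTPase that attacks the vacuoles of intracellular parasites, measured 6.79, 7.32 and 10.1 CPM in sh-Gpc4 and 11.4, 30.4 and 39.8 CPM in sh-Gpc2. Libraries 2 and 4 of sh-Gpc2 were high and library 1 lay just above the sh-Gpc4 range (-1.75 on the log2 scale, SE 0.43). Scrambled controls were at 4.33, 18.6 and 17.5 CPM and so reached both groups.

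The guanylate-binding protein gene Gbp6 was at 10.2, 5.08 and 10.3 CPM in sh-Gpc4 and 11.7, 50.6 and 31.7 CPM in sh-Gpc2 (-1.88, SE 0.53). Gbp2 of the same family was at 17.1, 10.05 and 25.9 CPM against 29.7, 38.8 and 52.6 CPM (-1.19, SE 0.36). Psmb8, a catalytic subunit of the immunoproteasome, was at 39.8, 26.1 and 52.0 CPM against 52.9, 76.2 and 76.3 CPM (-0.80, SE 0.26). In all of these library 3 of sh-Gpc4 or library 1 of sh-Gpc4 was lowest and library 2 or 4 of sh-Gpc2 highest, while library 1 of sh-Gpc2 stayed near the sh-Gpc4 libraries.

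The remaining 8 of these 12 genes belong to other groups. Itgav, the integrin alpha V chain, was at 25.6, 24.6 and 26.1 CPM in sh-Gpc4 and 31.98, 32.8 and 30.5 CPM in sh-Gpc2, with controls at 31.5, 34.5 and 33.4 CPM. The levels within each group were close, and the controls lay with the sh-Gpc2 libraries (-0.32, SE 0.11). Tgm2, a protein-crosslinking transglutaminase, was at 2.67, 0.974 and 2.60 CPM against 5.84, 17.6 and 3.64 CPM (-2.12, SE 0.64), a difference largest in library 2 of sh-Gpc2. The small GTPase Rhob was at 40.0 ± 4.13 CPM in sh-Gpc4 and 59.5 ± 14.6 CPM in sh-Gpc2 (SD, n = 3 each; -0.57, SE 0.19). Ntng1, which encodes the axonal adhesion protein netrin-G1, was at -0.65 (SE 0.19); its ligand's gene Lrrc4c is among the genes of the opposite direction. The myeloid receptor genes Lilr4b (-0.93) and Lilrb4a (-0.51) and the matrix protein gene Sparcl1 (-0.53) complete the set with Ptch1, which is described with its pathway. The controls were all above every sh-Gpc4 library for 4 of the 12, and their range reached both groups for 6.

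**Figure D2:**
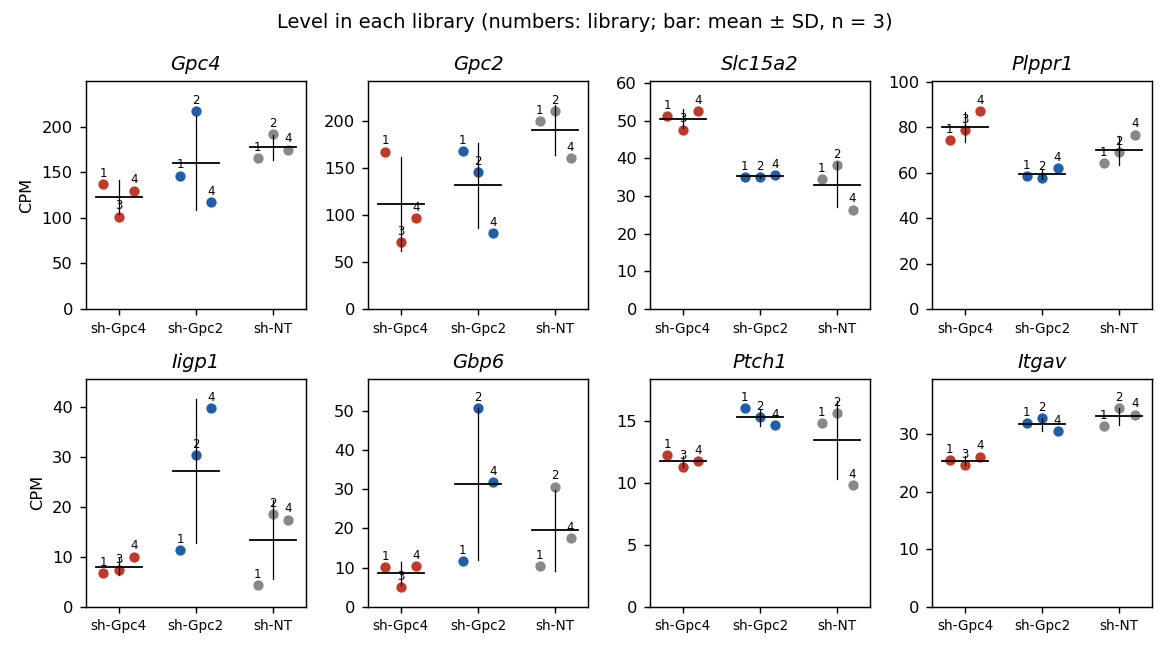
Each panel shows 1 gene in CPM on a linear axis from 0, with points for the single libraries, labelled by number, in sh-Gpc4, sh-Gpc2 and the scrambled controls (sh-NT), a horizontal bar for the group mean and a vertical bar for ± SD (n = 3). Slc15a2 separates the hairpins narrowly and evenly, whereas the interferon-inducible genes spread widely within sh-Gpc2 and within the controls.

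Because several of the lower genes were interferon-inducible, 3 families were counted whole. They were chosen after the values were seen, so the counts describe them and are no independent evidence. Cells make immunity-related GTPases and guanylate-binding proteins in response to interferon, and both act against microbes inside cells. All 8 tested immunity-related GTPases had a negative log2 fold change (median -1.54, range -2.71 to -0.59), also in each of the 15 alternatives, where the filter at 5 CPM left 5 of them. Their summed level was 66.6, 68.2 and 88.0 CPM in sh-Gpc4 libraries 1, 3 and 4 and 66.9, 234 and 191 CPM in sh-Gpc2 libraries 1, 2 and 4. Library 1 of sh-Gpc2 was thus level with the sh-Gpc4 libraries, and the difference lay in libraries 2 and 4. Scrambled controls summed to 53.9, 150 and 104 CPM, 1 below every sh-Gpc4 library and the others above them and below libraries 2 and 4 of sh-Gpc2. The groups did not overlap for 3 of 8 members, Iigp1, Tgtp2 and F830016B08Rik, while 2.01% of all tested genes were lower without overlap. Iigp1 had been selected for that property.

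Tgtp2, a T-cell-specific GTPase of this family, was at 1.41, 0.441 and 1.49 CPM in sh-Gpc4 and 2.35, 8.49 and 8.10 CPM in sh-Gpc2 (-2.50, SE 0.61). It had the smallest adjusted p of any alternative test, 0.167 in DESeq2. Igtp, which encodes Irgm3, a regulator of the other family members, was at 19.2, 20.5 and 24.6 CPM against 18.04, 85.8 and 58.6 CPM, with library 1 of sh-Gpc2 lowest of all (-1.34, SE 0.49). Tgtp1 and Tgtp2 are near-identical copies, as are several guanylate-binding protein and H2 genes, so the split of reads within these pairs is uncertain.

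All 10 guanylate-binding protein genes were also negative (median -0.95), but 4 of 10 were positive without library 4 of sh-Gpc2 and 3 of 10 in voom. Gbp2, Gbp5, Gbp6 and Gbp10, 4 of 10, were lower without overlap, against 2.01% of all tested genes. Gbp2 and Gbp6 had been selected for that property. The sums of the family were 87.0, 64.6 and 119 CPM in sh-Gpc4 against 109, 234 and 231 CPM in sh-Gpc2. Of 20 tested genes of class I antigen presentation 19 were negative (median -0.65, and -0.33 without library 3 of sh-Gpc4). Of these 20, 9 were lower without overlap, against 2.01% of all tested genes, and Psmb8 among them had been selected for that property. The list includes the class I transactivator Nlrc5 at 7.79, 1.74 and 7.05 CPM against 12.1, 35.0 and 12.2 CPM (-1.84, SE 0.64) and the class I heavy chain gene H2-Q7 at -1.29 (SE 0.44). The wider interferon list was mixed: 15 of 31 members were positive, and the median was -0.02 (from -0.14 without library 1 of sh-Gpc2 to 0.11 without library 3 of sh-Gpc4). Over the 26 genes left by the filter at 5 CPM, 10 were positive and the median was -0.18. Of the 31, 1 was lower without overlap, Gbp2 itself. Within this list the antiviral tether Bst2 was at 36.2, 20.7 and 36.4 CPM against 34.4, 59.7 and 53.2 CPM (-0.66, SE 0.28), with groups that overlapped through library 1 of sh-Gpc2.

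The medians stayed negative without any single sh-Gpc2 library, between -1.94 and -1.25 for the immunity-related GTPases and between -1.20 and -0.85 for the guanylate-binding proteins. Microglia can express these genes, and the summed level of 20 microglial and macrophage markers was 2045, 2139 and 2966 CPM in sh-Gpc4 and 2585, 955 and 2730 CPM in sh-Gpc2. It was lowest in library 2 of sh-Gpc2, where the immunity-related GTPases summed to 234 CPM. In library 4 of sh-Gpc2, where they summed to 191 CPM, the microglial sum was 2730 CPM. A part of microglia in these differences was not tested.

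The promoters of these families were read to see which carry the letters known to be bound in an interferon response. RefSeq promoters on GRCm38.p6, from 250 bases before to 50 after a gene's start, were searched on both strands for the gamma-activated site TTCNNNGAA and for the core of the interferon-stimulated response element, GAAA followed by any 2 bases and again GAAA. Of 32851 promoters of this length 8.30% held the first, 3.44% the second and 0.454% both. Of 6 immunity-related GTPase genes with an entry 4 held the first and 5 the second, and of 4 guanylate-binding protein genes with an entry 2 and 4 held them. Among 14 class I presentation genes with an entry the numbers were 2 and 3. In Igtp, Irgm2, Tgtp1 and Tgtp2 both motifs were present and the second began 11 bases after the start of the first. The promoters of Tgtp2, Igtp and Gbp2 are shown because they hold this pair or, for Gbp2, the second motif alone; they are written 5′ to 3′ on the gene's strand, and capitals mark the motifs.
Tgtp2 (chr11:49064163-49064462, minus strand): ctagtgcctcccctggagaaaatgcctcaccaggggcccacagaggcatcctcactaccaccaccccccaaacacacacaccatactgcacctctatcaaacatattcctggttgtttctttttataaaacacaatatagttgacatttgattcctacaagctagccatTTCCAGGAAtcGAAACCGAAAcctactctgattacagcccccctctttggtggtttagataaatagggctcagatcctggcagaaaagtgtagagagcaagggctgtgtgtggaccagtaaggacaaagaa
Igtp (chr11:58199306-58199605, plus strand): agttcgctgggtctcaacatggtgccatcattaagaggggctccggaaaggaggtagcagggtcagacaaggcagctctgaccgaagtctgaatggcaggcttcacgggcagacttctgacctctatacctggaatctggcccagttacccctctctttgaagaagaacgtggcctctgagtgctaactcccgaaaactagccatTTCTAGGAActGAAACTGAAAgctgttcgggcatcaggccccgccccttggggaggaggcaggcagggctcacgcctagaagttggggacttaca
Gbp2 (chr3:142620413-142620712, plus strand): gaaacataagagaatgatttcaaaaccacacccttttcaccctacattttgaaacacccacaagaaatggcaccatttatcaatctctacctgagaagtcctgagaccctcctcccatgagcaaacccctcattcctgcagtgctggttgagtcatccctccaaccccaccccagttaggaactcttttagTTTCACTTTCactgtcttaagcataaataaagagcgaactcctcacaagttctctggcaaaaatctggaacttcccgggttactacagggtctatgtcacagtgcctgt
In Tgtp2 and Igtp the motifs lie 2 bases apart, and in Gbp2 the second motif lies on the opposite strand, 59 bases before the start. A match of letters is a description and does not show that a factor was bound in these cells.

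Signals that bind heparan sulfate were followed through their receptors and targets. All 13 tested Hedgehog pathway genes had negative log2 fold changes (median -0.41), and 1 of 13 was lower without overlap, against 2.01% of all tested genes. This was Ptch1, which had been selected for that property. After removal of the GC trend 1 of 13 was positive, without library 2 of sh-Gpc2 2 of 13 were, and the median ran from -0.65 without library 1 of sh-Gpc4 to -0.21 without its library 3. Ptch1, the Hedgehog receptor and a target of the pathway, measured 12.2, 11.3 and 11.7 CPM in sh-Gpc4 and 16.0, 15.3 and 14.6 CPM in sh-Gpc2. The values were tight within each hairpin (11.7 ± 0.449 and 15.3 ± 0.684 CPM, SD, n = 3 each; -0.38, SE 0.12), but controls at 14.8, 15.6 and 9.80 CPM spanned both. The effector and target Gli1 was at 2.17, 0.776 and 1.71 CPM against 3.19, 3.11 and 1.69 CPM (-0.79, SE 0.41), and Gli2 was at -0.57 (SE 0.36). Both overlapped through library 4 of sh-Gpc2, which was as low as the sh-Gpc4 libraries.

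The BMP list was mixed, with 9 of 21 tested genes positive and a median of -0.16 (0.11 over the 13 genes left by the filter at 5 CPM, -0.03 without library 1 of sh-Gpc2 and -0.08 without its library 2). Bambi, Chrdl1, Bmp7 and the ligand gene Bmp6, 4 of 21, were lower without overlap, which 2.01% of all tested genes were, and 1 of 21 was higher, the signal transducer Smad1 (0.19). Bambi, a decoy receptor that dampens BMP and TGF-beta signals, was at 8.82, 9.01 and 8.10 CPM in sh-Gpc4 and 12.9, 11.7 and 10.1 CPM in sh-Gpc2 (-0.42, SE 0.15). The secreted antagonist Nog was at 0.737, 0.517 and 0.886 CPM against 2.53, 2.19 and 0.806 CPM (-1.37, SE 0.44), with library 4 of sh-Gpc2 again among the sh-Gpc4 values. The antagonist Chrdl1 (-0.57, SE 0.21) and the ligand Bmp7 (-0.72, SE 0.30) were both lower without overlap, at levels under 5 CPM in all 6 libraries.

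For Notch, 20 of 26 tested genes were negative, with a median of -0.20 that ran from -0.36 without library 4 of sh-Gpc2 to -0.08 without its library 2 and was -0.10 without library 3 of sh-Gpc4. The ligand Jag1 was at 18.8, 15.3 and 19.5 CPM against 21.4, 25.1 and 22.5 CPM (-0.36, SE 0.15). Of the 26, it alone did not overlap, while 2.01% of all tested genes were lower without overlap. FGF receptors and feedback genes had a median of -0.11, with 21 of 29 negative and 0 of 29 not overlapping, against 5.13% of all tested genes. Without library 1 of sh-Gpc2 12 of 29 were positive and the median was -0.05, and without its library 4 it was -0.22. Fgfbp3, which releases FGFs from heparan sulfate, was at 33.3, 18.3 and 50.7 CPM against 90.4, 94.0 and 36.0 CPM (-1.11, SE 0.46). Wnt genes had a median of -0.07 over 31 tested, from -0.15 without library 4 of sh-Gpc4 to -0.03 without library 2 of sh-Gpc2. The cortical ligand Wnt7b was at 82.3, 36.8 and 51.0 CPM against 185, 111 and 41.3 CPM (-0.99, SE 0.52). For Fgfbp3 and Wnt7b libraries 1 and 2 of sh-Gpc2 were high, and library 4 lay within the sh-Gpc4 range.

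**Figure D3:**
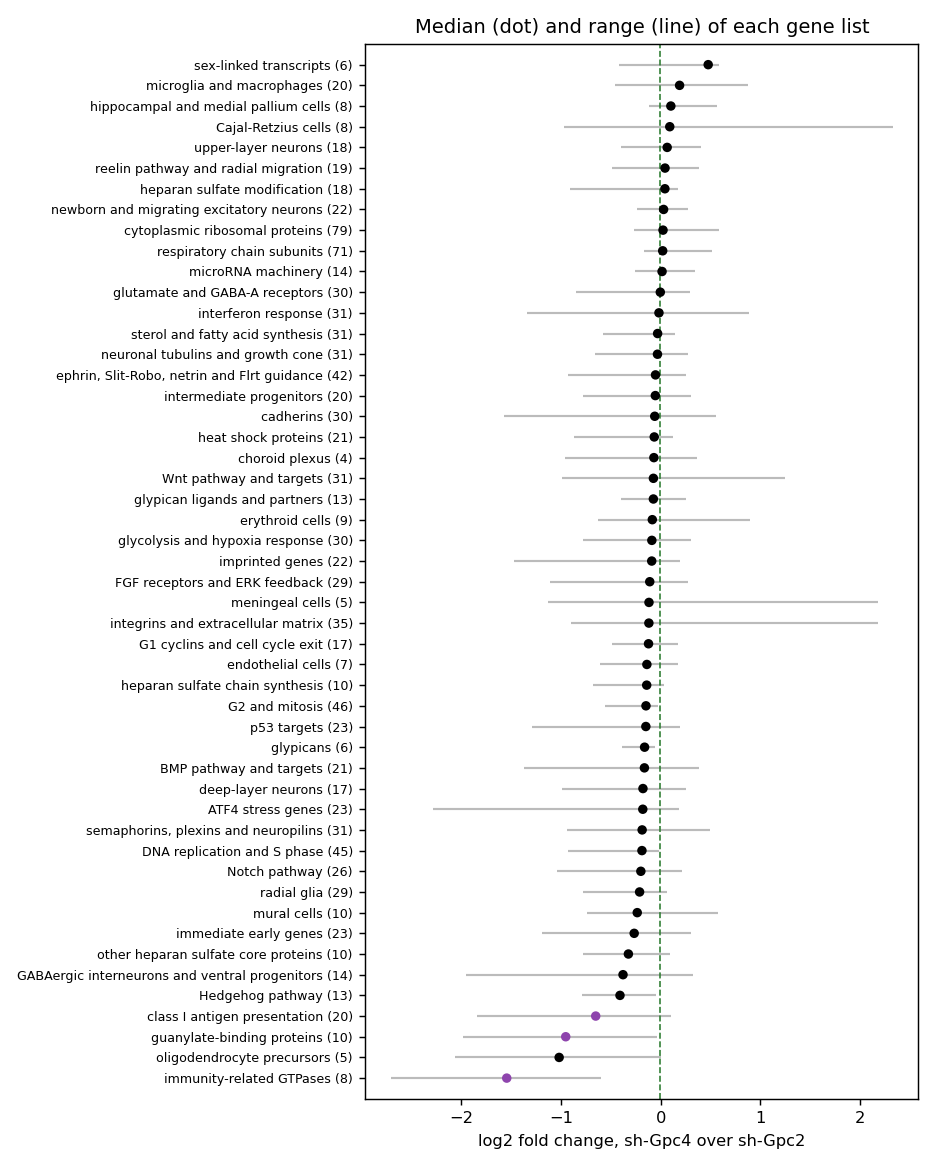
Each row is 1 gene list with its number of tested genes, the dot giving the median and the line the range of log2 fold changes of sh-Gpc4 over sh-Gpc2 (x axis); the dashed line is the median of all genes tested. Purple dots are the 3 families chosen after the values were seen. Of the 50 lists 39 have a negative median, and the immunity-related GTPases lie furthest to the left.

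Progenitor and cell cycle genes were mostly higher in sh-Gpc2, and the cell cycle genes were highest in its library 2. Of 29 radial glial genes 28 had negative log2 fold changes (median -0.21). Sox2, a factor that maintains neural progenitors, was at 17.6, 18.6 and 16.9 CPM in sh-Gpc4 and 18.7, 23.2 and 21.4 CPM in sh-Gpc2 (-0.25, SE 0.13). Of the 29, it alone did not overlap, while 2.01% of all tested genes were lower without overlap. The cortical progenitor factors Emx1 (-0.78, SE 0.41) and Nr2e1 (-0.47, SE 0.23) had high values in libraries 1 and 2 of sh-Gpc2 and low ones in library 4. All 45 genes of DNA replication and S phase were negative (median -0.19), as were all 46 of G2 and mitosis (median -0.15), with 2 of 45 and 1 of 46 positive after removal of the GC trend. Mcm5, a subunit of the replicative helicase, was at 124, 107 and 105 CPM against 127, 198 and 109 CPM (-0.37, SE 0.22), and the mitotic kinase Aurkb at 90.6, 95.8 and 91.0 CPM against 108, 155 and 90.9 CPM (-0.35, SE 0.19). Library 2 of sh-Gpc2 was the highest for both genes, and the other sh-Gpc2 libraries lay at or near the sh-Gpc4 range. Without it, 15 of 45 S phase genes were positive with a median of -0.01, 34 of 46 mitotic genes were positive with a median of 0.02, and 6 of 29 radial glial genes were positive with a median of -0.07. The radial glial median was -0.11 without library 3 of sh-Gpc4. Relative to the 6 libraries, the mean log2 CPM of the mitotic list was -0.18, 0.09 and -0.16 in sh-Gpc4 libraries 1, 3 and 4. In sh-Gpc2 libraries 1, 2 and 4 it was -0.09, 0.42 and -0.08, so library 3 of sh-Gpc4 also weighs on the mitotic median. With a replicate block by column number, 34 of 45 S phase and 42 of 46 mitotic genes stayed negative.

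**Figure D4:**
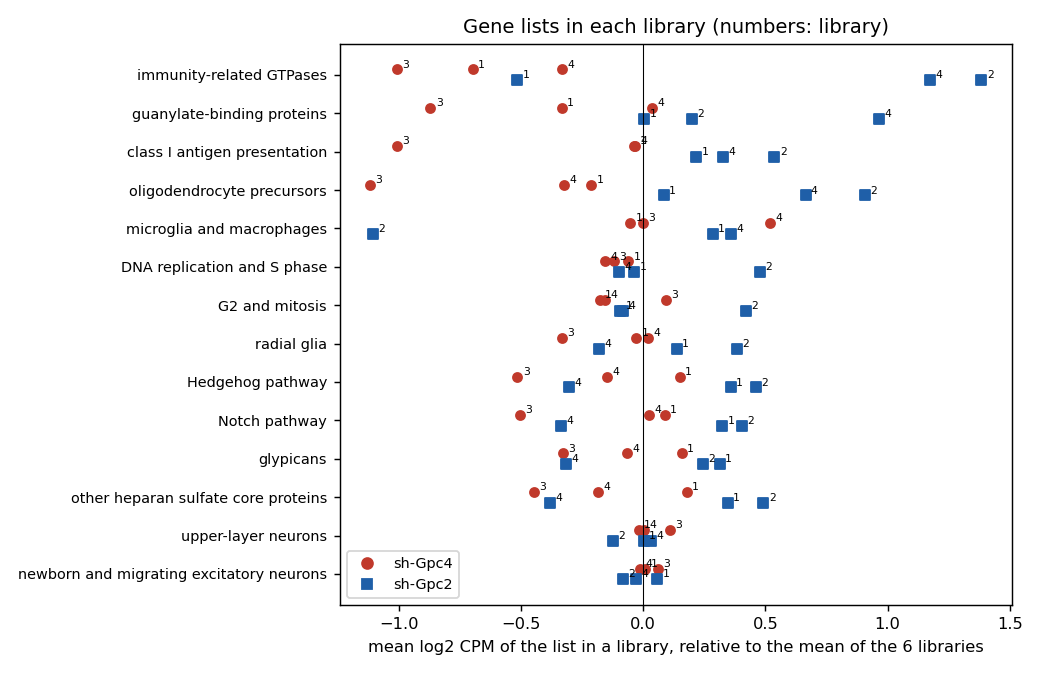
Each row is 1 gene list, and each point gives the mean log2 CPM of its members in 1 library relative to their mean over the 6 libraries (x axis, log2 units), with circles for sh-Gpc4, squares for sh-Gpc2 and numbers for the library. The S phase, mitotic and microglial lists are set apart by library 2 of sh-Gpc2, whereas the immunity-related GTPases are high in its libraries 2 and 4.

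Lists of newborn and upper-layer neurons and of intermediate progenitors lay near the median of all genes, and the deep-layer list lay lower. Newborn and migrating neuron genes had a median of 0.03 (12 of 22 positive), upper-layer genes 0.07 (13 of 18 positive) and intermediate progenitor genes -0.05 (8 of 20 positive). With single libraries left out these medians stayed between -0.10 and 0.12. Deep-layer genes had a median of -0.18, with 13 of 17 tested genes negative, and it ran from -0.26 without library 4 of sh-Gpc2 to -0.10 without its library 2. Of 17, 2 were lower without overlap, against 2.01% of all tested genes. These were Ntng1, described above and selected for that property, and the zinc finger factor Tshz2, at 0.996, 0.715 and 0.931 CPM in sh-Gpc4 and 1.30, 1.38 and 1.14 CPM in sh-Gpc2 (-0.53, SE 0.21). In the other direction 1 of 17 did not overlap (3.13% of all tested genes), against the direction of its list. This gene, Foxp2, a factor of corticothalamic neurons, was at 53.4, 55.3 and 52.1 CPM in sh-Gpc4 and 46.8, 46.6 and 41.2 CPM in sh-Gpc2, with all sh-Gpc4 libraries higher (0.26, SE 0.11). Its controls, at 50.6, 44.4 and 44.5 CPM, lay below the sh-Gpc4 values.

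Among surface molecules and matrix, 42 tested ephrin, Slit, netrin and Flrt genes had a median of -0.05 and 30 cadherins -0.06. The median was -0.19 for semaphorins, plexins and neuropilins (24 of 31 negative) and -0.12 for integrins and matrix genes (28 of 35 negative). With single libraries left out, the guidance median ran from -0.15 to 0.02 (without library 4 and library 1 of sh-Gpc2), the cadherin median from -0.15 to -0.01 (without its libraries 4 and 2), the semaphorin median from -0.28 to -0.025 (without its libraries 4 and 1) and the integrin median from -0.32 (without library 4 of sh-Gpc2) to -0.03 (without library 3 of sh-Gpc4). Cdh1, the epithelial cadherin, was at 0.0996, 0.107 and 0.118 CPM in sh-Gpc4, which is 5 to 8 reads a library, and at 0.214, 0.454 and 0.289 CPM in sh-Gpc2, or 12 to 28 reads (-1.55, SE 0.38). The groups did not overlap and the controls were at 0.356 to 0.550 CPM, but counting error is large at this depth. Of 30 glutamate and GABA-A receptor genes 15 were positive (median -0.003), and 2 were higher and 2 lower without overlap, against 3.13% and 2.01% of all tested genes. The glutamate receptor gene Grm7, 1 of the lower ones, was at 0.737, 0.822 and 0.975 CPM against 1.496, 1.39 and 1.36 CPM (-0.74, SE 0.20), with controls at 0.883 to 1.03 CPM, near the sh-Gpc4 values. The ephrin receptor gene Epha1 was at -0.67 (SE 0.21), without overlap and near 1 CPM in both groups. Of the 42 genes of its list 3 were higher and 2 lower without overlap, and the other lower one, Ntng1, had been selected for that property.

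Markers of other cell types also varied between libraries. The microglial receptor P2ry12, a marker of homeostatic microglia, was at 49.8, 60.1 and 52.6 CPM in sh-Gpc4 and 25.9, 4.29 and 58.3 CPM in sh-Gpc2 (0.88, SE 0.73), with library 2 of sh-Gpc2 lowest. Of the 20 microglial markers 15 were positive (median 0.19), but without that library 2 of 20 were, with a median of -0.15, and without library 4 of sh-Gpc4 9 of 20 were, with a median of -0.02. Of 10 oligodendrocyte precursor markers 5 were abundant enough to test, with a median of -1.02. Olig2, a factor of that lineage and of some progenitors, was at 0.518, 0.213 and 0.768 CPM in sh-Gpc4 and 1.18, 3.14 and 1.96 CPM in sh-Gpc2, without overlap (-2.06, SE 0.52), and Pdgfra, their growth factor receptor, was at -1.02 (SE 0.32). Control levels of Olig2 were 0.970, 2.53 and 2.05 CPM, above every sh-Gpc4 library. The summed level of the whole list was 5.46, 1.92 and 4.14 CPM in sh-Gpc4 and 5.36, 15.2 and 10.9 CPM in sh-Gpc2.

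Among 14 tested markers of GABAergic and ventral cells the median was -0.38 with 6 positive, and 3 of 14 were lower without overlap, against 2.01% of all tested genes. Among these 3, Gad2, an enzyme that makes GABA, was at 2.71, 3.07 and 3.07 CPM against 3.92, 4.55 and 3.99 CPM (-0.49, SE 0.16). Its controls, at 9.34, 4.54 and 2.37 CPM, spanned both groups. Summed over the list, the levels overlapped, at 57.7 to 68.3 CPM in sh-Gpc4 and 60.5 to 72.4 CPM in sh-Gpc2. Endothelial markers summed to 24.2 to 30.6 CPM and 26.9 to 31.5 CPM, and 0 of 14 had no reads in all 6 libraries. The part of other cell types in the differences between the hairpins was not tested.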

How the data were processed

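The data are RNA-seq libraries of sorted mouse forebrain cells. Per the labels' protocols, the PicoPure kit gave the RNA and a NEBNext kit for low input the libraries. The authors deposited raw counts of reads per gene and, per the submitters' processing notes, used featureCounts (Subread) and GRCm38 (mm10). The aligner, annotation release and strand setting were not given in the sources used here. Reads of overlapping genes thus cannot be separated. Of 78275 gene IDs 51486 (65.8%) have a symbol in GENCODE M21, and they hold 96.8% to 97.0% of each library's reads. The 37 mitochondrial genes had 0 reads.

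The counts of the 6 libraries were tested in R 4.3.3 with edgeR 4.0.16 (quasi-likelihood test, TMM, default filter on low counts, 27116 genes), with Benjamini-Hochberg adjustment and a threshold of 0.05. The edgeR test was checked on simulated counts. An SE is the absolute log2 fold change over the square root of the F statistic, with a median of 7.28 degrees of freedom for the intervals. CPM values are TMM-scaled over these libraries, with sh-NT put on the same scale. Alternatives were DESeq2 1.42.0 (size factors and the Wald test), limma 3.58.1 voom with sample weights, other filters, all 9 libraries in the fit, a replicate block, removal of a GC trend, and leaving out each library. Leaving out 2 libraries together was added after seeing the data. Columns name the hairpin, but their numbers are not those of the sample titles. No 2 libraries of a hairpin were duplicates: their counts gave a chi-square of 28.0 to 90.4 for each degree of freedom.

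The members and the lists were chosen with earlier results of these data known. Named genes are Gpc4, Gpc2, the 12 genes per direction with the smallest p among those with a symbol, a mean of at least 5 CPM and groups that do not overlap (no gene passed the threshold), and up to 4 members of each list described, by smallest p. Predicted and sex-linked genes were left out of the 12. Other genes given with values (markers of the labelled cells) are outside the rule. Of the list symbols 1121 of 1122 matched. Single values of some list members are not reported here. Promoters are from RefSeq, GRCm38.p6.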

Additional observations from a re-analysis of the deposited data

How the results depend on the processing

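In all 15 alternatives 0 genes passed the adjusted threshold. The number of genes at an unadjusted p under 0.05, 474 in edgeR, was 921 in voom, 1436 with no filter, 98 with more than 5 CPM in at least 3 libraries and 804 with all 9 libraries in the fit. It was 1248 without library 3 of sh-Gpc4 and library 4 of sh-Gpc2 together, and ran from 251 (without library 3 of sh-Gpc4) to 2127 (without library 4 of sh-Gpc2) with single libraries left out; the cause was not tested. The replicate block by column number, possible only for numbers 1 and 4, left 22 list medians negative in place of 39. With the block, 18 of 29 radial glial, 20 of 26 Notch and 7 of 13 Hedgehog genes were positive. By contrast, 34 of 45 S phase and 42 of 46 mitotic genes stayed negative. The block turned the log2 fold change of Gpc4 to 0.026, Gpc2 to 0.13, Gpc3 to 0.12, Gpc1 to 0.12, Hspg2 to 0.030, Sdc1 to 0.065, Hs3st2 to 0.11 and Mapt to -0.018. Deviations of libraries with the same number from their group means correlated at 0.672 for number 1 and -0.0915 for number 4. Each group mean includes a library whose number has no partner, so these values cannot decide whether the numbers pair libraries. The main fit took no pairs because the labels give none, and its directions depend on that choice where the block reverses them. Removal of the GC trend gave 0.082 for Gpc1. The other 82 of the 90 named genes kept their direction in every alternative that gave them a value. With single libraries left out, Gpc2 ran from -0.63 to 0.00577. The oligodendrocyte precursor list has no value under the stricter filter. Depth limits genes below 1 CPM, such as Cdh1.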

Other observations

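Stress and housekeeping genes gave further values between the hairpins, from lists whose groups were described nowhere above. Of 23 immediate early genes 19 had a negative log2 fold change of sh-Gpc4 relative to sh-Gpc2, with a median of -0.27 that ran from -0.43 without library 1 of sh-Gpc4 to -0.13 without library 1 of sh-Gpc2, and 9 of 23 were positive without library 4 of sh-Gpc2. Ier3 alone of the 23 did not overlap (-0.37, SE 0.16), while 2.01% of all tested genes were lower without overlap. Fos, the best known of them and chosen after its values were seen, was at 509, 404 and 318 CPM in sh-Gpc4, 549, 424 and 490 CPM in sh-Gpc2 and 329, 349 and 316 CPM in the scrambled controls. Slc7a11, a cystine transporter among the ATF4 stress genes, likewise chosen after its values were seen, was at 1.89, 2.63 and 2.20 CPM in sh-Gpc4 and 2.51, 9.67 and 20.7 CPM in sh-Gpc2, high in libraries 2 and 4 (-2.29, SE 0.66). Cytoplasmic ribosomal proteins had a median of 0.02, with 55 of 79 positive, but 18 of 79 were positive (median -0.06) without library 1 of sh-Gpc2 and 23 of 79 (median -0.03) without library 3 of sh-Gpc4.

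Transcripts of both sex chromosomes were present in every library. Xist, expressed from the inactive X chromosome, was at 83.3, 228 and 158 CPM in sh-Gpc4 and 140, 242 and 248 CPM in sh-Gpc2, and the Y-linked Eif2s3y was at 90.8, 81.8 and 86.1 CPM and at 79.1, 32.2 and 61.0 CPM. Eif2s3y was higher in all sh-Gpc4 libraries (0.59, SE 0.29), and its part in the differences given in the report was not tested.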
